A study of Mus musculus with 21 samples.

Results

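Deep regions of long genes were examined for DNA methylation in cultured mouse synovial fibroblasts, the stromal cells that line the joint. They were chosen by position alone: every listed region on chromosomes 1 to 19 that the deposited annotation placed in a gene body and more than 100 kb from the start site of its transcript. They numbered 5151 of the 49307 listed regions, and their distance from the start site had a median of 187 kb and a maximum of 2127 kb. They lay in 1306 gene symbols, of which 161 held such regions in all 4 tables. The deposited annotation gave the transcripts lengths from 100.5 to 2241 kb, which were taken as they stand. Some of these spans are unusual. Vmn2r99, a vomeronasal receptor, is given 1117 kb and the RIKEN transcript 1700112E06Rik 1036 kb, while 1300010F03Rik is given 216.1 kb for some of its regions and 353.1 kb for others.

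Cells were taken at 3, 8 and 11 weeks of age from Tg197 mice, a human TNF transgenic line that becomes arthritic, and from wild-type (WT) mice of 8 weeks whose cells were exposed to TNF. The reference was WT cells of the same age, untreated. All were CBA x C57BL/6J cells at passages 4 to 5, with 3 libraries in each of the 7 groups (21 in all). The labels give neither the TNF dose and exposure time nor whether replicates were separate mice or cultures, and the p-values then reflect library-to-library spread, which may be technical. The 8-week and TNF tables share their WT libraries.

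In MethylCap-seq, a protein that binds methylated CpGs pulls out methylated fragments for sequencing. A region's reads therefore depend on how many CpGs it holds as well as on how many are methylated. Long mammalian genes are made mostly of intron, and methylation of CpGs within the bodies of transcribed genes is a general feature of mammalian genomes. Such genes are rich in adhesion molecules, channels, guidance receptors and signalling enzymes, many of them best known from neurons, and several lie in common fragile sites, stretches of late replication that break under replication stress. The tables hold no expression, so the cell type could not be checked, and exon or intron was not assigned. Positions below are in mm9, the build named in the submitters' processing notes.

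A value is a normalized read number, the reads of a library in the region divided by 1 factor per library. Within the listed regions, recovered reads per library ranged from 2230884 to 2875555 at 3 weeks, 695108 to 1143699 at 8 weeks, 385155 to 544797 at 11 weeks and 1285304 to 1858694 in the TNF table. The median deep region held between 88 and 134 reads per library at 3 weeks, 18 and 52 at 8 weeks, 18 and 52 at 11 weeks, and 12 and 44 in the TNF table. A 0 in 1 library allows up to 3 reads, worth at most 4.41 normalized reads in any library. TNF-treated libraries 1 and 2 held the same values at all 16898 regions of their table and were counted as 1, which leaves 2 TNF-treated libraries against 3 untreated. A region rose or fell where limma, fitted to log2(value + 1) over all listed regions of its table, gave an adjusted p below 0.05. The authors had already selected every listed region for a difference, so a high share of calls is a property of the lists.

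At 3 weeks of age deep regions moved both ways in Tg197 cells, and most of the larger changes were rises. Of 1414 deep regions in 765 genes, 635 rose, 609 fell and 170 did not pass. That is 88% called, against 85% of all 13125 listed regions, and 44.9% that rose, against 40.3% of all. Falls made up 43.1% of deep regions, against 44.7% of all. Of the 403 called regions with a log2 fold change of at least 1 in either direction, 356 rose and 47 fell. The median change was 1.02 at deep regions higher in Tg197 and -0.26 at lower ones, against 0.99 and -0.26 over all listed regions. The asymmetry was thus not particular to deep regions. The libraries of Tg197 and WT did not overlap at 89% of deep regions, against 86.1% of all. With each library centred on its median, which removes a shift of -0.26, 734 deep regions rose and 138 fell, so 84.2% of called regions rose in place of 51%. The deposited p fell more than 10 times below what counting error alone allows at 34.2% of deep regions and 37.2% of all. Classes 3 and 4 of 4 equal classes by mean value, lowest first, held 256 and 225 of these 483 deep regions. Without the regions below that bound, 616 deep regions rose and 284 fell.

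At 8 weeks falls outnumbered rises, among deep regions as over the whole table. Of 1085 deep regions in 622 genes, 209 rose, 426 fell and 450 did not pass, so 58.5% were called, against 54% of all 11975 listed regions. Rises made up 19.3% of deep regions, against 17.4% of all, and falls 39.3%, against 36.6% of all. Deep regions stood higher in Tg197 cells in 44.3% of cases, against 27.7% of gene-body regions nearer than 100 kb and 56.1% of intergenic regions. Groups did not overlap at 75.6% of deep regions, against 69.6% of all. Centring removed a shift of -0.32 and gave 319 rises and 243 falls, 56.8% rises among called regions in place of 32.9%. The smallest limma adjusted p of a deep region at 8 weeks was 0.0428, just under the threshold. With limma, no deep region passed without Tg197 library 1, Tg197 library 3, WT library 1 or WT library 2, while 663, 585, 419 and 414 still had an unadjusted p below 0.05. Without Tg197 library 2, 769 passed, and without WT library 3, 492.

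At 11 weeks rises outnumbered falls, again as over the whole table. Of 856 deep regions in 520 genes, 473 rose, 225 fell and 158 did not pass, so 81.5% were called, against 77.9% of all 7309 listed regions. Rises made up 55.3% of deep regions, against 49.7% of all, and falls 26.3%, against 28.2% of all. Groups did not overlap at 86% of deep regions, against 83.7% of all. Centring removed a shift of 0.41 and turned the balance to 182 rises and 317 falls, 36.5% rises among called regions in place of 67.8%. With limma, no deep region passed without Tg197 library 1, Tg197 library 3 or WT library 2, while 641, 579 and 635 kept an unadjusted p below 0.05. Between 611 and 665 passed when another library was left out.

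TNF treatment of WT cells gave the longest list, with falls in the majority among deep regions and over the whole table. Of 1796 deep regions in 876 genes, 560 rose, 1123 fell and 113 did not pass, so 93.7% were called, against 93.8% of all 16898 listed regions. Rises made up 31.2% of deep regions, against 29.8% of all, and falls 62.5%, against 64.1% of all. Groups did not overlap at 96.5% of deep regions, against 95.8% of all. Deep regions stood higher in TNF-treated cells in 36.2% of cases, against 19.9% of gene-body regions nearer than 100 kb and 43% of intergenic regions. Centring removed a shift of -0.94 and gave 658 rises and 126 falls, 83.9% rises among called regions in place of 33.3%. Directions below are on the scale the authors deposited. Under centring, changes smaller than the shift removed can turn, and under TNF that shift was -0.94.

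**Figure D1:**
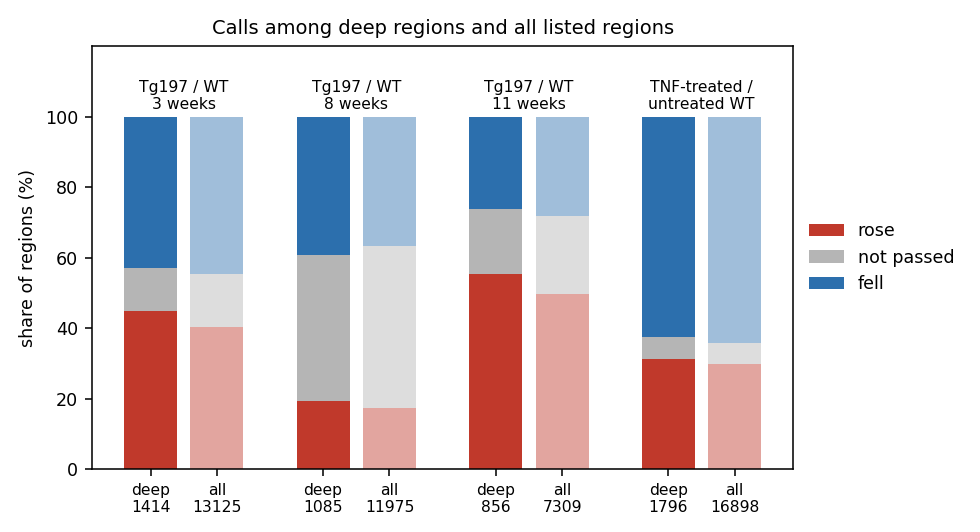
Share of regions (%) that rose, did not pass or fell in each comparison, with deep regions (full colour) left of all listed regions of the same table (pale) and the number of regions under each bar. The deep regions were split 635 to 609 between rises and falls at 3 weeks, and falls were more frequent at 8 weeks and under TNF (426 and 1123), rises at 11 weeks (473).

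Direction went with the read level of a region. With deep regions of each table split into 4 classes of equal size by mean value, the share higher in Tg197 cells at 3 weeks was 92.4%, 78.8%, 10.5% and 8.47%, lowest class first. At 8 weeks the order was the other way, with 11.1%, 26.6%, 56.5% and 83.1%. At 11 weeks it was 84.1%, 83.2%, 59.8% and 11.2%. For TNF-treated cells it was 15.1%, 8.69%, 32.5% and 88.4%. Gene-body regions nearer than 100 kb, cut at the same values, gave 94.5% to 7.57% at 3 weeks and 84.3% to 13.8% at 11 weeks, so the gradient was not particular to deep regions. In the highest class, deep regions were higher more often than nearer ones at 8 weeks (83.1% against 56.6%) and under TNF (88.4% against 60.3%). What part CpG content or capture has in this was not tested.

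**Figure D2:**
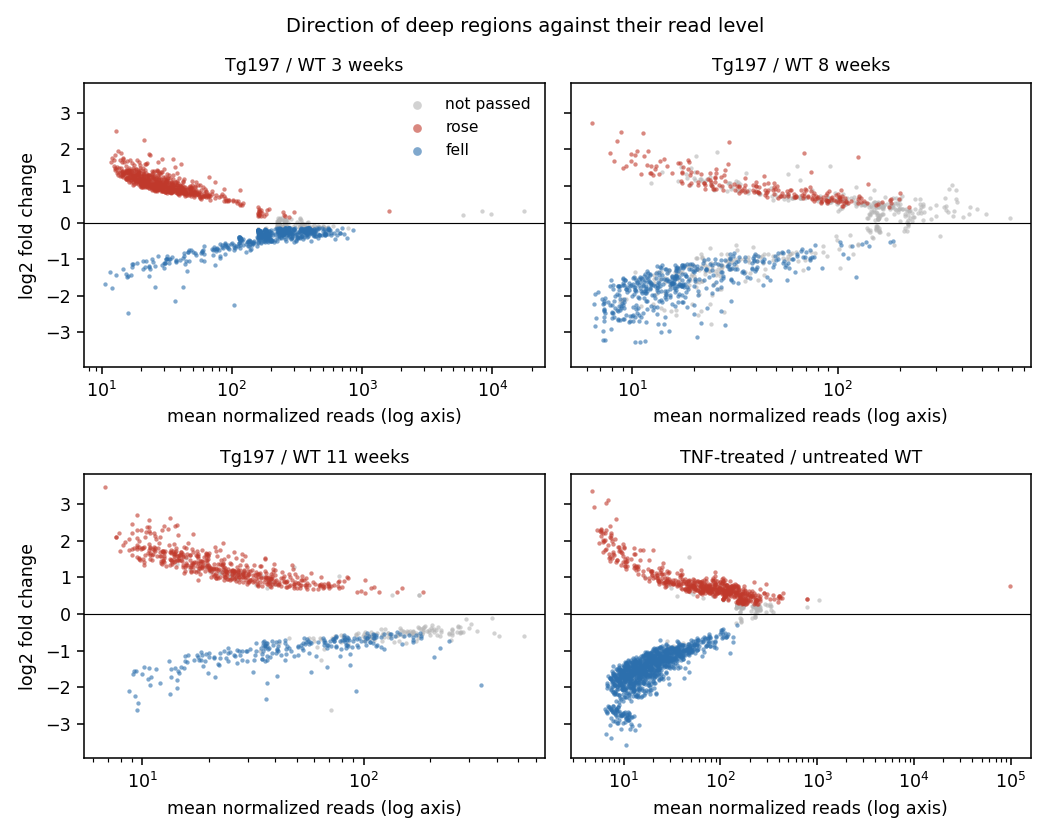
Log2 fold change of each deep region, Tg197 over WT or TNF-treated over untreated, against its mean normalized reads on a log axis, in 4 panels. Low-level regions rose at 3 and 11 weeks (92.4% and 84.1% higher in Tg197 in the lowest class) and fell at 8 weeks and under TNF (11.1% and 15.1% higher).

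Distance into the gene went with direction in the TNF table, where 28.7% of regions between 100 and 200 kb from the start, 42.2% between 200 and 400 kb and 50.7% beyond 400 kb stood higher in TNF-treated cells. Their median read level was 21.9, 27.2 and 31.7 over the same bands. At 8 weeks the 3 shares were 42%, 44.2% and 50.7%, with median levels of 27.9, 29.6 and 40.2. At 3 weeks (47.4%, 51% and 40.7%) and 11 weeks (61.2%, 54.4% and 64.1%) they showed no single order. Whether distance acts apart from level was not tested.

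The distance limit of 100 kb cut through a continuous range. At 3 weeks the last region inside lay 100136 bases into Cit, which codes for citron kinase of cell division, with 182 ± 5.11 normalized reads in Tg197 and 219 ± 4.64 in WT (SD, n = 3 each). The first region outside lay 99904 bases into Adamts20, an extracellular protease, with 41.4 ± 6.27 in Tg197 and 18 ± 7.03 in WT. At 8 weeks these were Fert2 at 100006 bases (131 ± 19.5 in Tg197, 79.3 ± 11.4 in WT) and Ankrd6 at 99978 (211 ± 5.28 in Tg197, 195 ± 15.5 in WT). At 11 weeks they were Wwc2 at 100178 bases (80.0 ± 19.1 in Tg197, 45.3 ± 3.97 in WT) and Acvr1 at 99962 (43.2 ± 35.5 in Tg197, 18.2 ± 4.55 in WT). In the TNF table they were 4933407C03Rik at 100032 bases (6.96 ± 2.83 in TNF-treated cells, 25.9 ± 11.9 in untreated) and Rasa3 at 99710 (18.8 ± 0.219 in TNF-treated cells, 41.6 ± 10.9 in untreated).

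Among single regions at 3 weeks, the 4 largest rises with groups that did not overlap lay in Dlgap2, Lrrk2, 544988 and Lsamp. Dlgap2, a scaffold protein of the postsynaptic density, had 20.5, 19.8 and 21.8 normalized reads in Tg197 libraries at chr8:14800401-14800950, 704.8 kb into the gene, against 3.76, 10.9 and 0 in WT libraries. Its log2 fold change was 2.50 ± 0.61 (SE; limma adjusted p = 0.00264). Lrrk2, a large kinase known from inherited Parkinson's disease, had 28.1, 28.3 and 36.6 in Tg197 and 0, 13.6 and 19.3 in WT. In both genes the Tg197 libraries were close together, and the WT libraries were spread and included a 0. The region of 544988 (current symbol Gm3696) had 25.9, 20.7 and 18.8 in Tg197 and 4.69, 5.43 and 4.54 in WT, with a tight WT group. Lsamp, a cell adhesion protein of the IgLON family, had 19.4, 20.7 and 24.7 in Tg197 and 3.76, 13.6 and 2.27 in WT.

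The 4 largest falls at 3 weeks were in Rnasen, Gucy1a2, Fat3 and Cit. Rnasen (current symbol Drosha), the nuclease that starts microRNA processing, had 0, 10.4 and 8.9 in Tg197 at chr15:12861151-12861650 and 28.2, 26.2 and 22.7 in WT (log2 fold change -2.46 ± 0.64, limma adjusted p = 0.00306). Fat3, an atypical cadherin, had 24.8, 33.9 and 0.99 in Tg197 and 50.7, 61.5 and 47.7 in WT. A single low Tg197 library carried much of the Fat3 fall. Cit had 2.16, 7.54 and 5.93 in Tg197 and 17.8, 18.1 and 20.4 in WT at a second region 133.3 kb into the gene. The region farthest from any start site was in Cntnap2, a neurexin-family adhesion protein, at 2127 kb. It rose, with 25.9, 33.9 and 43.5 in Tg197 and 14.1, 18.1 and 9.09 in WT (log2 fold change 1.28 ± 0.30, limma adjusted p = 0.0024).

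At 8 weeks the largest rises had low WT levels throughout. Hpse2, a heparanase-related protein of the matrix, had 13.2, 11.1 and 8.83 in Tg197 at chr19:42873051-42873550 and 5.07, 0 and 0 in WT (log2 fold change 2.71 ± 0.78, limma adjusted p = 0.0428). Shisa6, a partner of AMPA-type glutamate receptors, had 18.6, 11.8 and 14.7 in Tg197 and 0, 5.99 and 2.21 in WT. Wdr72, known from enamel formation, had 18.6, 11.8 and 26.5 in Tg197 and 5.07, 5.99 and 0 in WT. These 3 genes held at least 1 WT library at 0. Dpf3, a subunit of the BAF chromatin remodelling complex, had 17.2, 9.69 and 14.7 in Tg197 and 5.07, 3.75 and 0 in WT.

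The largest falls at 8 weeks shared a pattern over libraries. Arid1b, a DNA-binding subunit of BAF, had 0, 6.92 and 0 in Tg197 at chr17:5305851-5306500 and 27.9, 19.5 and 11.1 in WT (log2 fold change -3.27 ± 0.88, limma adjusted p = 0.0428). Prune2 had 0, 6.92 and 0 in Tg197 and 19.4, 22.5 and 13.3 in WT. Mylk, the kinase that phosphorylates myosin light chains, had 0, 9.69 and 0 in Tg197 and 22.0, 21.0 and 16.6 in WT. In all 3 genes, Tg197 libraries 1 and 3 held no read and library 2 held some. Ranbp17, of the nuclear export receptor family, had 0, 2.77 and 0 in Tg197 and 17.8, 15.0 and 8.84 in WT, with the same order. Over all 481 deep regions higher in Tg197 at 8 weeks, library 2 was also nearest to WT, at a median log2 ratio of 0.38 against 0.93 and 0.71 in libraries 1 and 3. At 8 weeks the farthest region was in Lrp1b, a lipoprotein receptor-related protein, 1584 kb from its start, with 42.4, 58.8 and 60.3 in Tg197 and 33.8, 21.7 and 24.3 in WT.

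At 11 weeks the largest rise was in Odz2 (current symbol Tenm2), which codes for teneurin-2, a transmembrane adhesion protein of synapses. At chr11:36484551-36485050, 272.9 kb into the gene, it had 9.57, 11.4 and 19.0 normalized reads in Tg197 and 0, 0 and 0.97 in WT. That is 44 reads in Tg197 against 1 in WT, a ratio of 38 with a 95% exact interval of 6.47 to 1533 that covers counting error only. Ebf2, a transcription factor of mesenchymal and fat lineages, had 20.7, 11.4 and 17.2 in Tg197 and 5.44, 1.86 and 0 in WT. Slc2a13, a myo-inositol transporter, had 27.9, 16.0 and 23.3 in Tg197 and 0, 9.31 and 3.9 in WT. Palld, the actin-bundling protein palladin, had 19.1, 12.6 and 23.3 in Tg197 and 0, 5.58 and 3.9 in WT (log2 fold change 2.56 ± 0.73, limma adjusted p = 0.0219). In each of these 4 genes all 3 Tg197 libraries stood above all 3 WT libraries.

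The largest falls at 11 weeks were in Tex2, Cadm1, Gucy1a2 and Opcml. Cadm1, an immunoglobulin-type adhesion molecule, had 7.18, 0 and 2.59 in Tg197 at chr9:47568151-47568900 and 15.0, 16.8 and 15.6 in WT (log2 fold change -2.44 ± 0.75, limma adjusted p = 0.0219). Opcml, an IgLON adhesion protein, had 5.58, 0 and 4.31 in Tg197 and 21.8, 12.1 and 11.7 in WT, 1111 kb into the gene. Tex2 had 1.6, 0 and 6.9 in Tg197 and 19.0, 12.1 and 17.5 in WT. Tg197 library 2 held no read in any of these 3 genes. The farthest region was again in Lrp1b, 1649 kb from the start, and stood higher in Tg197, with 22.3, 17.2 and 19.8 against 2.72, 8.38 and 10.7 in WT (limma adjusted p = 0.0236).

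Among the largest rises under TNF were those in Fmn1, Ror1 and Ttll11. Fmn1, a formin that nucleates actin filaments, had 11.9 and 13.6 in the TNF-treated libraries at chr2:113339401-113340150 and 0, 3.05 and 0 in untreated cells (log2 fold change 3.11 ± 0.72, limma adjusted p = 0.0109). Ror1, a receptor for Wnt5a, had 13.9 and 14.9 in TNF-treated cells and 1.71, 5.33 and 0 in untreated cells. Ttll11, which adds glutamate chains to tubulin, had 11.9 and 12.4 in TNF-treated cells and 1.71, 0 and 4.91 in untreated cells. Every TNF-treated library exceeded every untreated library in these 3 genes, at low levels in both groups.

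The largest falls under TNF came down to a few reads. Birc6, a large inhibitor of apoptosis, had 1.99 and 0 in TNF-treated cells and 20.6, 22.1 and 17.2 in untreated cells, a read ratio of 0.0543 (95% exact interval 0.00644 to 0.204, counting error only). Enox1, an electron-transfer protein of the cell surface, had 1 and 0 in TNF-treated cells and 18, 15.2 and 9.83 in untreated cells, a ratio of 0.0371 (0.000921 to 0.217). Runx1, a transcription factor of blood and skeletal lineages, had 1 and 0 in TNF-treated cells and 13.7, 12.2 and 12.3 in untreated cells, a ratio of 0.0433 (0.00107 to 0.255). The second TNF-treated value was 0 in all 3 genes. Odz2 had 5.97 and 0 in TNF-treated cells and 30.0, 25.9 and 14.7 in untreated cells. The farthest region in the TNF table was in Macrod2, an enzyme that removes ADP-ribose from proteins, 1853 kb from the start. It had 11.9 and 11.2 in TNF-treated cells and 4.28, 3.81 and 0 in untreated cells (limma adjusted p = 0.0213).

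Many genes held several deep regions, and these went one way in 41.2% to 51.7% of such genes. At 3 weeks 306 genes held 2 or more deep regions. In 59 all stood higher in Tg197, in 67 all stood lower and in 180 they were mixed, so 41.2% went one way (95% Wilson interval 35.8 to 46.8). These intervals treat genes as independent, although all genes of a table share its libraries. They do not measure the spread between replicates. The 8-week share was 106 of 215 genes, 49.3% (42.7 to 55.9), with 39 all higher and 67 all lower. At 11 weeks it was 97 of 188 genes, 51.6% (44.5 to 58.6), with 70 all higher and 27 all lower. Under TNF it was 222 of 429 genes, 51.7% (47 to 56.4), with 58 all higher and 164 all lower. Among genes with 3 or more regions the shares were 20.6%, 41.3%, 36.6% and 37% in the same order.

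Pairs of regions were compared within and between genes, which is a different measure from the shares of genes above. No expected value was computed for those shares. Pairs within 1 gene went the same way in 53.9% of 1493 pairs at 3 weeks, against 50.1% of pairs from different genes. At 8 weeks it was 63.5% of 1236 pairs against 50.6%, at 11 weeks 60.3% of 716 pairs against 51.8%, and under TNF 64.5% of 2205 pairs against 53.8%. With both regions in the same class of read level the shares were 80.4% within genes against 78.8% between genes at 3 weeks, 72.6% against 63.9% at 8 weeks, 78.1% against 71% at 11 weeks and 81.2% against 73.9% under TNF. Neighbouring regions of a gene within 10 kb of each other went the same way in 53%, 76%, 69.7% and 67.5% of pairs at 3, 8 and 11 weeks and under TNF. Those 10 to 50 kb apart did so in 60.5%, 63.8%, 63.6% and 67.1%, those 50 to 100 kb apart in 56.8%, 54.2%, 54.7% and 56.7%, and those farther apart in 58.2%, 72%, 56.8% and 57.7%. At 3 weeks the closest neighbours had the lowest share, and at 8 weeks the farthest came near the closest. Genes with many regions weigh most in the within-gene shares, above all Odz2, with 25 deep regions at 8 weeks and 17 at 11 weeks. Its regions were mixed at both ages, 9 higher and 16 lower in Tg197 at 8 weeks and 11 and 6 at 11 weeks. Pairs share regions and libraries, so these are descriptions with no test.

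**Figure D3:**
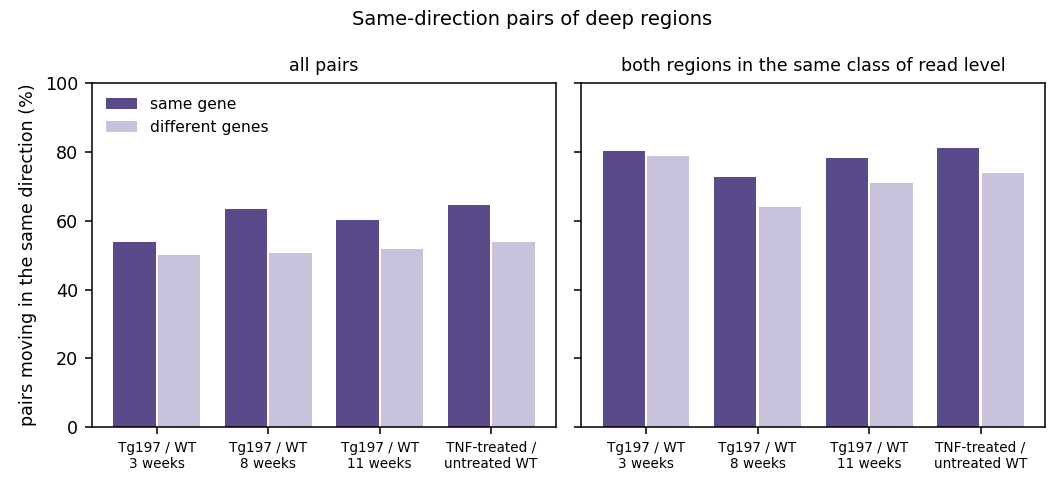
Share (%) of pairs of deep regions that went the same way, for pairs from the same gene (dark) and from different genes (pale), over all pairs (left) and with both regions in the same class of read level (right). Same-gene pairs exceeded different-gene pairs by 53.9% against 50.1% at 3 weeks and by 64.5% against 53.8% under TNF, and within a level class both shares were higher.

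Odz2 held the most regions of any gene at 8 weeks, 25 within its 937.6 kb, and at 11 weeks, 17, but 1 at 3 weeks and 2 under TNF. At 8 weeks 8 regions rose, 13 fell and 4 did not pass, with log2 fold changes from -2.77 to 1.62. At 11 weeks 11 rose and 6 fell, from -1.46 to 3.46. Rises and falls alternated along the gene. At 8 weeks the region 768 kb from the start had 37.1, 45.7 and 26.5 in Tg197 and 13.5, 15.0 and 14.4 in WT. The next, at 770.1 kb, had 25.2, 44.3 and 17.6 in Tg197 and 107, 80.2 and 65.2 in WT, and at 771.6 kb the direction turned again, with 31.8, 29.1 and 27.9 in Tg197 and 12.7, 19.5 and 14.4 in WT.

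Of 5 Odz2 regions that overlapped between the 8-week and 11-week tables, 4 were called at both ages, each in the same direction. At 678.2 kb the log2 fold change was 0.99 at 8 weeks and 1.05 at 11 weeks, and at 770.1 kb it was -1.57 and -0.85. At 798.8 kb it was -1.20 and -1.46, and near 532 kb -1.20 and -0.91. The 5th, near 859 kb, had -1.24 at 8 weeks (limma adjusted p = 0.088) and 1.73 at 11 weeks (limma adjusted p = 0.0219). The 2 ages share no library.

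Wwox, a WW-domain oxidoreductase and the gene of a common fragile site, held 46 deep regions over the 4 tables, the most of all genes. At 3 weeks 3 rose, 9 fell and 2 did not pass, out of 14. At 11 weeks 8 of 9 rose, none fell and 1 did not pass, with log2 fold changes from 0.87 to 1.72. Its largest rise at 11 weeks, 819.3 kb from the start, had 19.1, 12.6 and 25 in Tg197 and 5.44, 1.86 and 9.74 in WT. Under TNF 13 of 16 fell, 1 rose and 2 did not pass. The largest of these falls, at 575.5 kb, had 0 and 4.96 in TNF-treated cells and 17.1, 11.4 and 11.1 in untreated cells. At 8 weeks 2 rose, 2 fell and 3 did not pass.

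**Figure D4:**
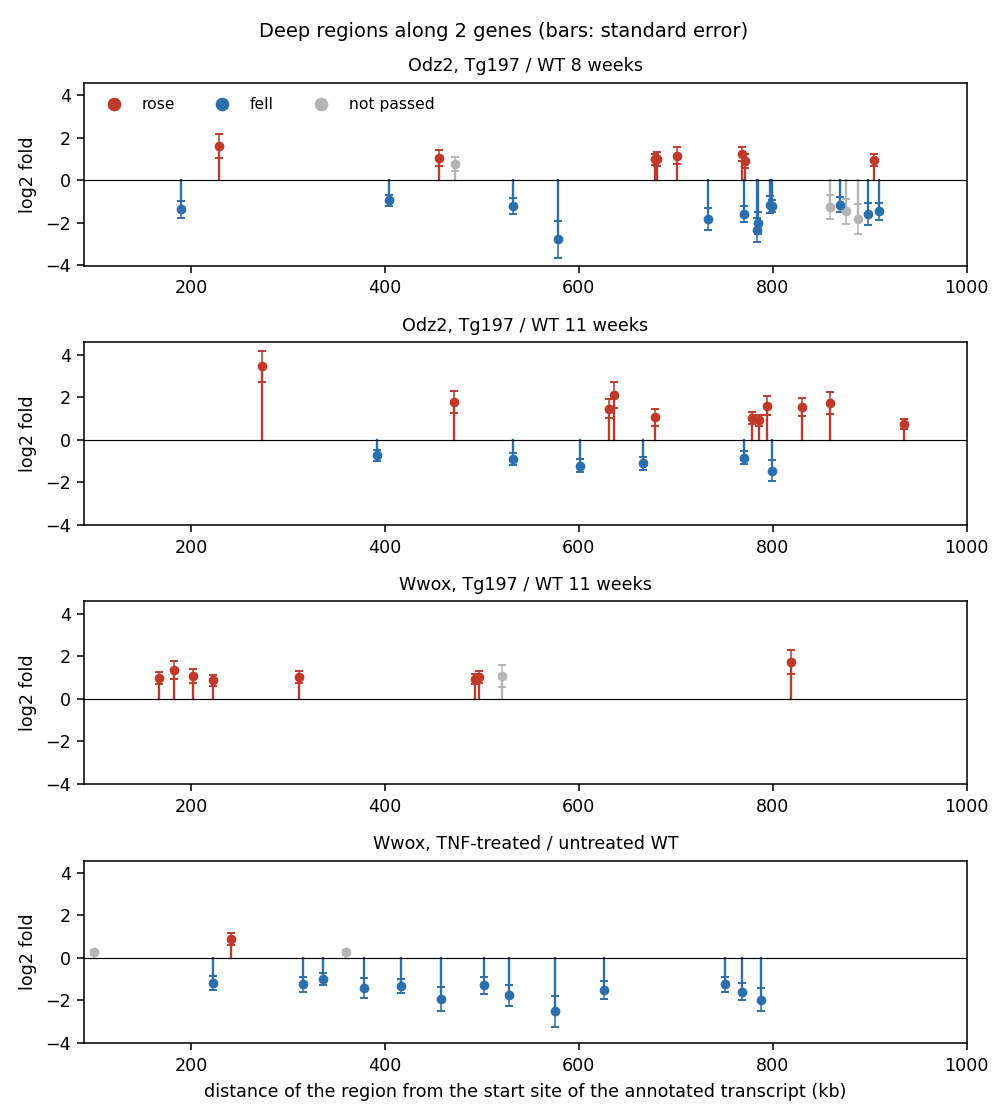
Log2 fold change with its standard error for each deep region of Odz2 (8 and 11 weeks, Tg197 over WT) and Wwox (11 weeks, Tg197 over WT, and TNF-treated over untreated WT), against distance from the start site in kb. Odz2 alternates between rises and falls along the gene (8 and 13 at 8 weeks, 11 and 6 at 11 weeks), and Wwox went one way at 11 weeks (8 rises) and in 13 of 16 regions under TNF.

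The other genes with most regions at 3 weeks were mixed. Prkce, a protein kinase C, had 3 rises and 7 falls among 11 regions, and Agap1, a GTPase-activating protein for Arf, 3 rises and 4 falls among 10. Gpc6, a cell-surface glypican, had 5 rises and 3 falls among 9, the transcription factor Camta1 3 and 5 among 9, and the kinase Mast4 5 and 3 among 8. Genes with 3 or more regions that all rose numbered 10 and those that all fell 9. Slit3, a secreted ligand of Robo receptors, rose in all 4 regions (0.79 to 0.97 on the log2 scale), with 35.6, 46.2 and 50.4 in Tg197 and 18.8, 27.1 and 20.4 in WT at the largest. Btbd9 rose in 4 regions (0.89 to 1.54) and Utrn, the dystrophin relative utrophin, in 3 (0.97 to 1.66). Fryl fell in all 7 regions, but by little (-0.46 to -0.17), with 145, 129 and 128 in Tg197 and 194, 173 and 187 in WT at the largest. Gabbr2, a GABA-B receptor subunit, fell in 5 regions (-1.07 to -0.18) and the splicing factor Rsrc1 in 4 (-0.42 to -0.20). The medians of Fryl and Rsrc1, -0.30 and -0.26, were near the shift of -0.26 that centring removes at this age. In Fryl, Gabbr2 and Rsrc1, 4, 2 and 2 regions had a deposited p more than 10 times below what counting error allows.

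At 8 weeks Vmn2r99 followed Odz2 with 6 rises and 2 falls among 10 regions. Dnahc8, a dynein heavy chain of cilia and flagella, had 5 rises and no fall among 9 regions, with the other 4 also higher in Tg197 but not past the test (0.42 to 1.88 over all). Its largest rise had 17.2, 15.9 and 13.2 in Tg197 and 0.85, 5.24 and 6.63 in WT. Slit3 at this age had 7 falls and 2 rises. The largest fall had 1.33, 4.15 and 0 in Tg197 and 13.5, 15.0 and 9.95 in WT. Ptprm, an adhesive receptor tyrosine phosphatase, had 1 rise and 3 falls among 8, and 1700112E06Rik 1 and 4 among 8. Only Thsd7b rose in each of 3 or more regions (0.65 to 0.80), with 45.1, 53.3 and 60.3 in Tg197 and 30.4, 27.7 and 30.9 in WT at the largest. Of 4 genes with 3 or more regions that all fell, Apba1, a neuronal adaptor protein, Ppp1r9a, the actin-binding protein neurabin, and 1300010F03Rik had 3 each.

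At 11 weeks Prkca, another protein kinase C, had 6 rises and 2 falls among 9 regions, and Smyd3, a lysine methyltransferase, 3 and 5 among 9. Hivep3, a zinc-finger factor, had 1 rise and 3 falls among 7, and Maml3, a Notch coactivator, 2 and 4 among 6. In 13 genes 3 or more regions all rose. Sdk1, the adhesion protein sidekick-1, rose in 5 regions (0.86 to 1.29), spread from 117 to 919 kb. The largest had 38.3, 38.9 and 47.4 in Tg197 and 8.16, 22.3 and 23.4 in WT. Tns1, the focal adhesion protein tensin-1, rose in 4 (0.98 to 1.33), where the largest had 56.6, 45.8 and 103 in Tg197 and 34.0, 16.8 and 27.3 in WT. Kalrn rose in 4 (0.98 to 1.82). Gucy1a2 was the 1 gene in which 3 regions all fell.

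Gucy1a2, a subunit of the nitric oxide receptor guanylyl cyclase, held the only deep region listed at all 3 ages, and that region fell at each age. Near 295 kb from its start, at chr9:3827451-3828050 in the 3-week table, it had 62.6, 61.3 and 44.5 in Tg197 and 91.1, 119 and 110.2 in WT (log2 fold change -0.92 ± 0.16, limma adjusted p = 0.00146). At 8 weeks it had 34.5, 58.1 and 44.1 in Tg197 and 83.7, 72.7 and 87.3 in WT (-0.85 ± 0.25, limma adjusted p = 0.0428). At 11 weeks it had 66.2, 87.0 and 86.2 in Tg197 and 96.5, 149 and 139 in WT (-0.66 ± 0.24, limma adjusted p = 0.0331). Groups did not overlap at any age. A further region, near 355 kb, had 74.5, 60.3 and 6.92 in Tg197 and 209, 131 and 142 in WT at 3 weeks (log2 fold change -2.25). At 11 weeks it had 187, 269 and 46.6 in Tg197 and 571, 482 and 483 in WT (-1.93). At both ages 1 Tg197 library lay far below the other 2. Gucy1a2 was not in the TNF table's deep regions, and at 8 weeks a different region, at 223.5 kb, rose with 18.6, 9 and 19.1 in Tg197 and 2.54, 5.24 and 4.42 in WT.

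**Figure D5:**
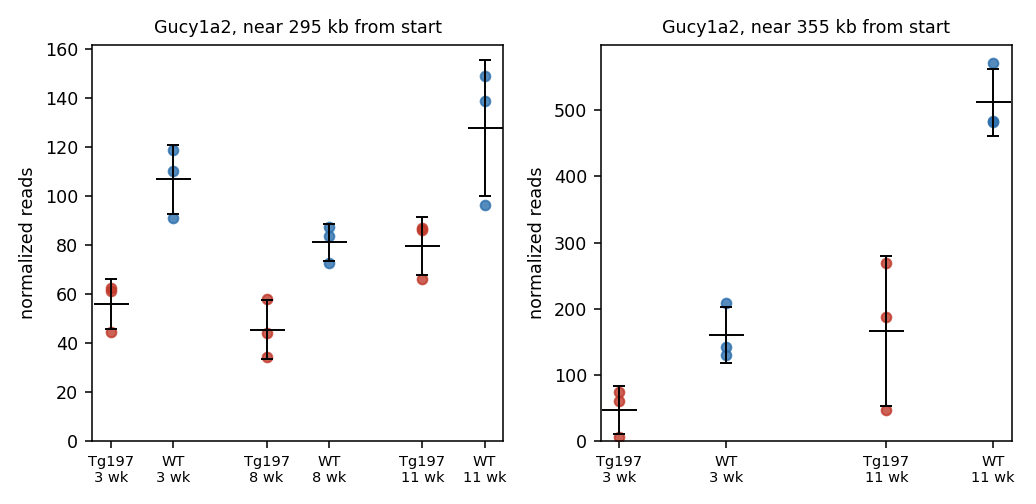
Normalized reads in each library (points) with mean and SD (bars, n = 3) at 2 regions of Gucy1a2, Tg197 left of WT at each age. Near 295 kb every Tg197 library lay below every WT library at 3, 8 and 11 weeks (means 56.1 against 107, 45.6 against 81.2 and 79.8 against 128), and near 355 kb at the 2 ages that list it.

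Under TNF, Camta1 fell in 11 of 13 regions and rose in 2, and Slc39a11, a zinc transporter, fell in 8 of 10 with 2 not past the test. Pde4d, a cyclic AMP phosphodiesterase, had 7 rises and 4 falls among 11, and Enox1 6 and 3 among 10. All regions fell in 55 genes with 3 or more. Cacna1c, the pore of the L-type calcium channel, fell in 9 (-2.07 to -0.64), and its largest fall had 7.96 and 4.96 in TNF-treated cells and 37.7, 35.0 and 19.7 in untreated cells. Atxn1, known from spinocerebellar ataxia, fell in 9 (-2.77 to -0.97) and Fto, an RNA demethylase, in 7 (-2.30 to -0.90). The smallest falls of Cacna1c and Fto were less than the shift of -0.94 that centring removes under TNF, and that of Atxn1 was near it. All regions rose in 15 genes. Robo1, a Slit receptor, rose in 5 (0.48 to 0.69), with 284 and 356 in TNF-treated cells and 177, 194 and 219 in untreated cells at the largest. Sntg1, a syntrophin, rose in 4 (0.27 to 0.72) and Erbb4, a neuregulin receptor, in 3 (0.44 to 0.62). In untreated cells the regions of these 3 genes had means of 50.4 to 347. Those of Cacna1c, Atxn1 and Fto had 14.3 to 140, so the ranges overlapped. In TNF-treated cells, where the change itself enters the level, the ranges were 79.4 to 471 and 2.49 to 90.3.

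The role lists were read against the shares over all listed regions, which were 40.3% rises and 44.7% falls at 3 weeks, 17.4% and 36.6% at 8 weeks, 49.7% and 28.2% at 11 weeks, and 29.8% and 64.1% under TNF. Of neuronal adhesion genes, 27 of the 41 on the list, which includes the neurexin family, had deep regions at 3 weeks, where 19 regions rose, 30 fell and 9 did not pass. Under TNF the same list had 29 rises, 20 falls and 3 not passed, with a median log2 fold change of 0.52, against -1.08 over all regions of the table. The 8-week counts were 20, 18 and 21 (median 0.49, against -0.22 over all), and at 11 weeks 25, 17 and 4. Odz2 supplied 25 of the 59 regions at 8 weeks and 17 of 46 at 11 weeks.

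Axon guidance genes had 10 rises and 1 fall at 11 weeks (median 1.12, against 0.76 over all regions), 9 rises and 15 falls at 3 weeks, 5 and 15 at 8 weeks, and 14 and 14 under TNF. Ion channels and transmitter receptors had 22 rises and 27 falls at 3 weeks, 8 and 11 at 8 weeks, 14 and 9 at 11 weeks, and 26 and 39 under TNF (37.7% and 56.5% of the list's regions). Cadherins and protocadherins had 8 and 8, 4 and 2, 7 and 5, and 9 and 15 in the same order. Receptor tyrosine phosphatases had 7 rises and 2 falls at 3 weeks and 3 and 9 at 8 weeks, then 4 and 0 at 11 weeks and 11 and 14 under TNF. Growth factors and their receptors had 13 and 14, 4 and 7, 3 and 0, and 18 and 20.

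Kinases, phosphodiesterases and cyclases had 35 rises and 25 falls at 3 weeks and 33 and 8 at 11 weeks (median 1.02, against 0.76 over all), and 4 and 20 at 8 weeks. Under TNF they had 33 and 64, which are 33.3% and 64.6% of the list's regions and close to the shares over all regions. Cytoskeletal and junction proteins had 38 and 26, 15 and 16, 28 and 15, and 30 and 59 in the order 3, 8, 11 weeks and TNF. Their shares under TNF, 31.9% and 62.8%, were also close to those over all regions. Matrix genes and their proteases, which are products of fibroblasts, had 20 rises and 11 falls at 3 weeks, 10 and 6 at 8 weeks (median 0.60, against -0.22 over all), 12 and 4 at 11 weeks, and 14 and 31 under TNF. Transcription and chromatin factors had 30 and 25, 10 and 25, 27 and 22, and 25 and 65, with a median of -0.48 at 11 weeks against 0.76 over all. Splicing regulators had 9 and 3, 3 and 7, 4 and 3, and 6 and 8.

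Fragile-site genes had 16 rises, no fall and 3 regions not passed at 11 weeks, 8 of these rises in Wwox. Under TNF they had 23 rises and 27 falls. Lrp1b rose in both of its regions at 3 weeks, both at 11 weeks and all 3 under TNF, where Macrod2 had 4 rises and 3 falls. At 3 weeks the list had 18 rises and 23 falls and at 8 weeks 10 and 5. None of these list counts was tested against other genes.

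Few deep regions recurred between tables. Between 3 and 11 weeks 26 pairs of regions overlapped, 1.84% of the 3-week and 3.04% of the 11-week deep regions. Both were called in 19 pairs, of which 16 had the same direction, 7 rises and 9 falls. Between 3 and 8 weeks 49 pairs overlapped, 3.39% and 4.42% of each list, and of 15 called in both 8 had the same direction. Between 8 and 11 weeks it was 24 pairs, 2.21% and 2.8%, and 8 of 13. The 3-week and TNF tables had 64 pairs, with 8 of 43 called in both in the same direction, and for 11 weeks and TNF there were 34 pairs, with 4 of 27. The 8-week and TNF tables overlapped at 179 pairs, 16.4% and 9.86% of each list. They share their WT libraries, so their directions are not compared. The genes recurred more than the regions, since 457 genes held deep regions in at least 3 tables.

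Overlapping deep regions from at least 3 tables occurred at 13 places. In Dst, Hivep2, Hs6st3, Maml3 and Cdk6 no log2 fold change of these regions was larger than 0.25 in either direction. Ephb2, an ephrin receptor, was lower in 3 comparisons, of which those at 8 weeks and under TNF share their WT libraries. At 3 weeks it had 8.64, 11.3 and 9.89 in Tg197 and 26.3, 21.7 and 25 in WT (log2 fold change -1.21 ± 0.29, limma adjusted p = 0.00242). At 8 weeks it had 2.65, 0 and 0 in Tg197 and 16.9, 15.0 and 8.84 in WT, 2 reads against 48 and a ratio of 0.0495 (95% exact interval 0.00583 to 0.189, counting error only). Under TNF it had 3.98 and 2.48 in treated cells, against 17.1, 15.2 and 9.83 in untreated cells.

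Ank3 and Ppp1r9a went opposite ways at 3 and 8 weeks, as deep regions of low mean value did as a set. In classes 1 and 2 of mean value, lowest first, 92.4% and 78.8% stood higher in Tg197 at 3 weeks. At 8 weeks these shares were 11.1% and 26.6%. Ank3, the membrane-cytoskeleton linker ankyrin-G, rose at 3 weeks with 21.6, 20.7 and 26.7 in Tg197 and 5.63, 10.9 and 12.5 in WT (log2 fold change 1.23 ± 0.33, limma adjusted p = 0.00337). At 8 weeks it fell, with 2.65, 2.77 and 1.47 in Tg197 and 12.7, 13.5 and 7.74 in WT (-1.89 ± 0.46, limma adjusted p = 0.0428). Ppp1r9a rose at 3 weeks with 42.1, 62.2 and 59.3 in Tg197 and 27.2, 30.8 and 23.9 in WT (0.96 ± 0.22, limma adjusted p = 0.00218). At 8 weeks it fell with 3.98, 11.1 and 2.94 in Tg197 and 30.4, 43.5 and 14.4 in WT (-2.17 ± 0.60, limma adjusted p = 0.0428). Zfp704, a zinc-finger factor, rose at 3 weeks with 35.6, 33.0 and 30.7 in Tg197 and 17.8, 18.1 and 15.9 in WT. Under TNF it fell, with 5.97 and 0 in treated cells and 24.8, 13.7 and 12.3 in untreated cells.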

How the data were processed

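Methylated DNA was captured with a methyl-CpG-binding protein kit and sequenced as paired ends, per the labels' protocols. BWA, TopHat, TopHat2, Cufflinks, Cuffdiff and mm9 are named in the submitters' processing notes without roles, and what program and test listed the regions is not given in the sources used here. In 4 tables, normalized separately, the authors deposited a mean signal per group and 1 packed value per library, whose whole multiples returned whole reads within 0.1 for 100% of low values. Each region carries a deposited log2 fold change and p-values of the authors, which served for the bound from counting error. Distances are the authors' too. Treatment columns were taken as the Tg197 or TNF-treated cells, control columns as WT, and 0 columns were left out. Packed values carry no replicate number, and library numbers here are positions in the packed cell.

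limma 3.58.1 in R 4.3.3, with a mean trend and no filter on low values, was fitted to log2(value + 1) of all listed regions of a table, with Benjamini-Hochberg adjustment over them and a threshold of 0.05; it was tested on simulated data. The added 1 shrinks the change of low regions. Fold changes are Tg197 over WT or TNF-treated over untreated. Standing higher or lower means only the sign of the fold change. Exact intervals of read ratios are conditional binomial. Tables and shares were made with pandas 2.3.3 in Python 3.11.15.

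Named were, per table, the 4 largest rises and falls past the test (mean of the higher group at least 10, groups not overlapping, 1 region per gene), the 6 genes with most deep regions, up to 3 genes per direction with 3 or more regions all called one way, the farthest region, regions overlapping in 3 or more tables, the genes with most regions over all tables, and counts of 13 role lists. Among these, 1 gene and 1 role list are not reported here. Lrp1b and Macrod2 named beside the fragile-site list and single regions within named genes were picked after their values were seen. The members and lists were chosen with earlier results of these data known. Alternatives were other pseudocounts, a filter, centring, limma voom on recovered reads, a fold limit, adjustment over all implied windows, a distance above 200000 bases, merging of near regions, and leaving out each library. No sequence is shown, since a genome of the files' build was not used here.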

Additional observations from a re-analysis of the deposited data

Results flagged for a closer look

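At 14 places deep regions listed at 2 ages overlapped and went opposite ways, with every Tg197 library above every WT library at 1 age and below at the other. The places are among the overlapping pairs called at both ages. Such pairs numbered 15 between 3 and 8 weeks, 19 between 3 and 11 weeks and 13 between 8 and 11 weeks. The difference between ages was not tested, and the tables were normalized separately. The value given is the log2 fold change at the later age minus that at the earlier.

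Between 3 and 8 weeks it was -3.18 in Tmem132c (-1.72 at 8 weeks, 1.46 at 3 weeks), -3.13 in Ppp1r9a (-2.17 at 8 weeks, 0.96 at 3 weeks) and -3.12 in Ank3 (-1.89 at 8 weeks, 1.23 at 3 weeks). It was -2.78 in Arhgap10 (-1.45 at 8 weeks, 1.33 at 3 weeks), -2.72 in Dlg1 (-1.51 at 8 weeks, 1.21 at 3 weeks) and -2.44 in Tbc1d22a (-1.68 at 8 weeks, 0.76 at 3 weeks). The glutamate receptor gene Grik2 went the other way, by 1.17 (0.76 at 8 weeks, -0.41 at 3 weeks). Deep regions as a set also turned between these ages. The share higher in Tg197 went from 92.4% to 11.1% in the lowest class of mean value and from 8.47% to 83.1% in the highest.

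Between 3 and 11 weeks it was 1.68 in the matrix protein gene Fras1 (0.93 at 11 weeks, -0.75 at 3 weeks), 1.02 in the integrin gene Itga9 (0.82 at 11 weeks, -0.20 at 3 weeks) and -2.36 in the kinase gene Prkg1 (-1.56 at 11 weeks, 0.80 at 3 weeks). The 3-week change in Itga9 is smaller than the shift of -0.26 that centring removes at that age. Between 8 and 11 weeks it was 2.39 in the kinase gene Tnik (0.83 at 11 weeks, -1.56 at 8 weeks), -2.80 in Grik3 (-1.13 at 11 weeks, 1.67 at 8 weeks), -1.72 in the myosin gene Myo1e (-1.14 at 11 weeks, 0.58 at 8 weeks) and -2.11 in Rbms3 (-1.25 at 11 weeks, 0.86 at 8 weeks).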

How the results depend on the processing

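No paired analysis was possible because the packed values carry no replicate number. Counts of called deep regions stayed within 1.5 times under a pseudocount of 5, the filter at a mean of 10 and limma voom. They did so too on removal of regions below the counting bound, an alternative chosen after seeing the data. Under limma voom 1003, 526, 585 and 1216 passed at 3, 8 and 11 weeks and under TNF. Rises numbered 665, 25, 490 and 131 under voom, against 635, 209, 473 and 560 in the main fit. Adjusted over all implied windows, 1 region passed at 3 weeks and 0 in the other 3 tables, where 798, 726 and 1688 had an unadjusted limma p below 0.05. With a pseudocount of 0.1 the 8-week count was 0, with 742 at an unadjusted p below 0.05. An absolute log2 fold of at least 1 left 403, 438 and 1081 at 3 and 11 weeks and under TNF, with 356, 339 and 113 rises. Beyond 200 kb, where there are fewer regions, 556 of 635, 303 of 516, 317 of 390 and 761 of 817 passed. Centring left 784 under TNF. Leaving out 1 library gave 1131 to 1198, 0 to 769 and 0 to 665 at 3, 8 and 11 weeks. In the TNF table, leaving out 1 untreated library gave 1347 to 1677. Without either distinct treated library only 1 treated library remains, so no count is given.

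The share of genes whose regions all went one way was 40.8% to 41.8%, 48.8% to 50.2%, 51.6% to 52.1% and 51.5% to 51.7% when 1 library was left out. With 3 or more regions it was 20.6%, 41.3%, 36.6% and 37%. Centring gave 51.6% at 3 weeks and 46.6% under TNF, a distance above 200 kb 59.6% at 8 weeks and 46.8% under TNF, and removal of regions below the counting bound 51% at 3 weeks. Of 1073 values of named regions under alternatives, 823 kept their side of the threshold, 228 no longer passed and 16 newly passed. In 6 the direction turned, with the region past the test in the main fit or in the alternative. Turns of regions past the test in neither fit are counted among the 823. The 6 turned under centring at 3 weeks. Of them 5 were falls, which came to 0.05 in Dst, 0.10 in Hivep2, 0.02 in Htr1f, 0.02 in Maml3 and 0.07 in Cdk6. Cux1, at -0.07 and not past the test, came to 0.20. The causes were not tested. At 8 and 11 weeks the median deep region held as few as 18 reads in a library, which limits the precision of single regions.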
